A study of Mus musculus with 18 samples.

Results

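The genes described here are the olfactory receptor genes with a measurable transcript level in mouse testis. They were taken as the rows of the deposited expression table whose gene symbol starts with Olfr followed by a digit and whose mean over all 18 libraries was at least 0.5 FPKM (fragments per kilobase and library size, a level scaled by gene length and sequencing depth). The table names no unit, and FPKM was inferred from its values. This rule gave 28 genes of 654 olfactory receptor genes, in a table of 20985 genes. The libraries came from whole testis of ICR mice, an outbred stock, at 10 weeks of age, with 3 libraries in each of 6 groups. STZ+AOS mice received streptozotocin (STZ), a toxin of pancreatic beta cells used to make mice diabetic, together with alginate oligosaccharide (AOS, a seaweed-derived mix of short uronic acid chains) at a dose of 10 mg/kg. STZ+AOS-FMT and STZ+control-FMT mice received streptozotocin plus a transfer of faecal microbes (FMT), which the labels appear to name by the donors, dosed with AOS (10 mg/kg) in the first case and controls in the second. STZ mice received streptozotocin alone, AOS mice received alginate oligosaccharide alone at 10 mg/kg, and control mice are described by that word only. Whether the 3 libraries of a group are separate animals is not stated in the labels, and p-values therefore measure only the spread between libraries, which may be technical.

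Olfactory receptors are G protein-coupled receptors encoded by one of the largest gene families of the mouse, mostly as single coding exons in dense genomic clusters. In olfactory sensory neurons a receptor that binds an odorant activates the G protein Golf (Gnal), which switches on adenylyl cyclase 3 (Adcy3) and opens a cyclic nucleotide-gated channel made of Cnga2, Cnga4 and Cngb1. A small set of these receptors is also transcribed in testis and sperm, where the mouse receptor Olfr16 (MOR23) has been studied for sperm responses to odorants. Class I receptors are the group related to fish receptors, and class II receptors are the larger group typical of land vertebrates.

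The members were few and their levels uneven. Of the 654 genes, 152 were at 0 in every library, 568 had a mean below 0.1 FPKM and 58 lay between 0.1 and 0.5 FPKM. The median olfactory receptor gene had a mean of 0.00889 FPKM, against 3.02 FPKM for the median gene of the table. Among the 28 members, 16 averaged at least 1 FPKM and 5 averaged at least 5 FPKM, and the 5 highest held 62.2% of the members' summed level. Olfr701 had the highest mean, 11.75 FPKM, at percentile 71.2 of all genes, and the lowest member lay at percentile 29.2. Just inside the threshold were Olfr20 (0.531 FPKM), Olfr554 (0.521 FPKM) and Olfr357 (0.507 FPKM), and just outside it were Olfr874 (0.498 FPKM), Olfr732 (0.497 FPKM) and Olfr27 (0.461 FPKM). These levels chose the members and are a description only.

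**Figure D1:**
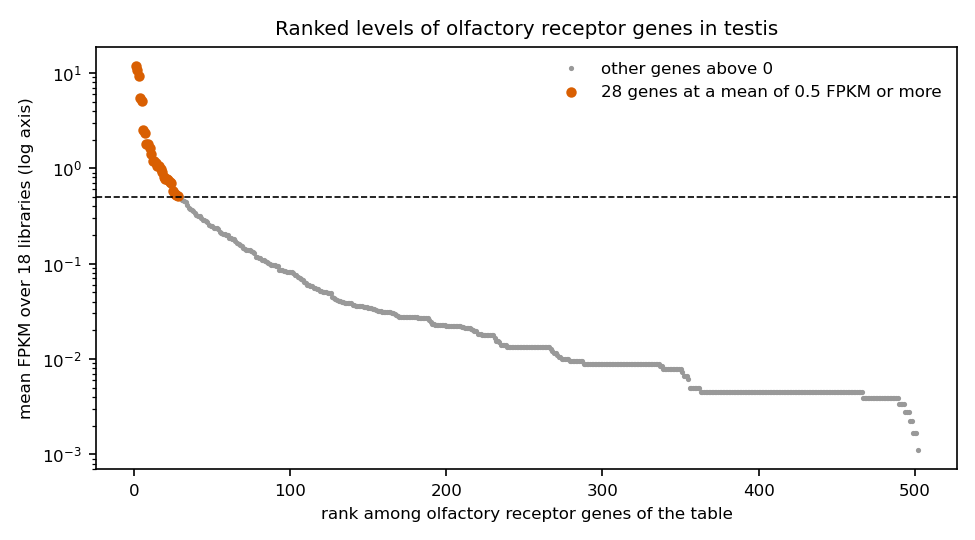
Mean FPKM over the 18 libraries (log axis) of the olfactory receptor genes above 0, ranked from high to low, with the mean of 0.5 FPKM dashed. The 28 genes at or above the line are in orange, and levels pass through the line without a gap, from 0.507 FPKM just above to 0.498 FPKM just below.

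One subfamily stood out by number. RefSeq synonyms place Olfr112, Olfr128, Olfr127, Olfr761 and Olfr126 in the class II subfamily MOR218, which has 10 genes in the table, and the 5 other genes of MOR218 had means of at most 0.0389 FPKM. All 5 members lie in the olfactory receptor cluster of chromosome 17 between 37561668 (the start of Olfr112) and 37953079 (the end of Olfr761), in GENCODE M21 annotation of GRCm38 (mm10). Their coding sequences were 84.3 to 94% identical to each other (median 91.1% over 10 pairs), against 47.7 to 63% for 363 pairs of members from different subfamilies. The stretch of 57 coding bases around the conserved Asp-Arg-Tyr triplet, which ends the third membrane helix of these receptors and is used in G protein activation, shows this closeness. It is printed for the 5 MOR218 genes, and for Olfr733, Olfr212 and Olfr1033, whose levels differed between groups in the comparisons that follow. Bases are 5′ to 3′ on the coding strand, from GENCODE M21 transcripts, and the 9 bases of the triplet are in capitals.
Olfr112: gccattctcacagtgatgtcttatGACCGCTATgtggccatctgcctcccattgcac
Olfr127: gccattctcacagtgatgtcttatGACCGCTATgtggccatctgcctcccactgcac
Olfr128: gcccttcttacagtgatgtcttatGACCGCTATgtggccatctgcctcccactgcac
Olfr761: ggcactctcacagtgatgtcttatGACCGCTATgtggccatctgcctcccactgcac
Olfr126: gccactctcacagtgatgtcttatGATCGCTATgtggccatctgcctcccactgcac
Olfr733: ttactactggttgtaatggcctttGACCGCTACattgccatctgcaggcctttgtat
Olfr212: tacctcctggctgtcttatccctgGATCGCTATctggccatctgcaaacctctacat
Olfr1033: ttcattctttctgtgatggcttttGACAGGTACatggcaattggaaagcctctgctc
The 5 MOR218 stretches were alike at 51 of 57 positions, and pairs differed at 1 to 4 bases. They lie on GRCm38 at chr17:37563917-37563973 (minus strand, Olfr112), chr17:37903884-37903940 (plus, Olfr127), chr17:37923904-37923960 (plus, Olfr128), chr17:37952630-37952686 (minus, Olfr761) and chr17:37850930-37850986 (plus, Olfr126). The other stretches lie at chr14:50298915-50298971 (minus, Olfr733), chr6:116516133-116516189 (plus, Olfr212) and chr2:86041647-86041703 (plus, Olfr1033). A search in frame over this part of the coding sequence found such a triplet in 22 of the 28 members, with 10 different spellings of its 9 bases.

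Likeness of sequence limits how far reads can be told apart. Of the 50-base windows of its coding sequence, Olfr128 shared 49.7% with another gene, most often Olfr127, and Olfr127 shared 45.5%, most often with Olfr128. Olfr126 shared 36% and Olfr761 24.9%, in both cases most often with Olfr127, and Olfr112 shared 22.1%, most often with Olfr113. How the authors placed reads with several matches is not given in the sources used here, so the split of levels within MOR218 is uncertain. The limit also holds outside MOR218, for members called in the comparisons that follow. Olfr325 shared 51.2% of its windows, most often with Olfr330, Olfr1383 42.4% and Olfr365 38.4%. Olfr1033 shared 28.1%, Olfr212 26.5%, Olfr733 14.3% and Olfr215 3.29%. Olfr701 shared 1.89% of its windows, and Olfr613, Olfr697, Olfr303, Olfr19, Olfr308 and Olfr357 shared 0%. Olfr1344 and Olfr20 shared 100% with the annotated genes Gm20715 and Gm49340, which overlap them.

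The other members came from many subfamilies. Pairs of members belonged to MOR104 (Olfr303, Olfr308), MOR119 (Olfr212, Olfr215), MOR135 (Olfr23, Olfr20), MOR138 (Olfr365, Olfr357) and MOR283 (Olfr701, Olfr697). The low MOR numbers of Olfr613 (MOR20) and Olfr554 (MOR25) mark the class I receptors. By chromosome, 7 members lay on chromosome 7, 5 on 17, 4 each on 2 and 11, 2 each on 6, 14 and 16, and 1 each on 1 and 10. None lay on chromosome 9 or 19, which hold 73 and 41 olfactory receptor genes of the table.

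Most receptor genes beside a member were near 0, as were most receptor genes of the table. Within 20000 bases, 19 members have another olfactory receptor gene of the table, which for Olfr127 and Olfr128 is the other one of this pair. The 27 such neighbours that are not members had a median level of 0.0211 FPKM. That is above the median of all 654 olfactory receptor genes, 0.00889 FPKM, so neighbours were not lower than receptor genes in general. Of these neighbours 18 were at or below 0.05 FPKM, and the highest was Olfr732, next to Olfr733, at 0.497 FPKM. The neighbours are below 0.5 FPKM by the rule. In the annotation 24 members overlapped no other gene. The other 4 overlapped Gm20715 (Olfr1344), Gm44932 (Olfr19), 1700054K02Rik (Olfr1413) and Gm49340 (Olfr20), none of which is in the table. Gm20715, Gm44932 and Gm49340 lie on the same strand as the member they overlap, so strand cannot tell reads of these pairs apart. For 1700054K02Rik, on the strand opposite to Olfr1413, it could, but the labels do not say that counting used strand. Gene models had several exons for 26 of 28 members (92.9%) and for 573 of 625 other olfactory receptor genes with a model (91.7%). The median longest transcript was 3601 bases for members and 2883 bases for the others.

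Start sites upstream of a noncoding first exon were sought because they give the only view of a promoter. RefSeq (GRCm38.p6) gave a start window for 19 members, 9 with a start upstream of the coding start and 10 with a start at the coding start itself. For Olfr701, the member with the highest level, and Olfr212, a member whose level differed between groups, the RefSeq and GENCODE starts coincide, 3956 and 9263 bases before the coding start. The 250 bases before these starts are printed 5′ to 3′, both from the plus strand, with matches to TATAAA and CCAAT on either strand in capitals.
Olfr701: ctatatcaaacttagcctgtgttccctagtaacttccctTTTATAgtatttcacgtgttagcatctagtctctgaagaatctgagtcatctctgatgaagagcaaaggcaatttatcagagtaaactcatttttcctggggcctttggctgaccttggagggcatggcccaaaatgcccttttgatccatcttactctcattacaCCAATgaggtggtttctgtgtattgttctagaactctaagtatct
Olfr212: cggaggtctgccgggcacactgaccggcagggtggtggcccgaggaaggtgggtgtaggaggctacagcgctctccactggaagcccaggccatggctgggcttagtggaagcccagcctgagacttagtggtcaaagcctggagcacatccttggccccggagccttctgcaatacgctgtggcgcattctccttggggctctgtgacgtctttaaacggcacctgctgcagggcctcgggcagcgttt
They lie at chr7:106813879-106814128 for Olfr701 and chr6:116506266-116506515 for Olfr212. Of the 9 member windows that start upstream of the coding start, 4 held TATAAA and 4 held CCAAT, on either strand. Of 32851 mouse promoter windows of the same length, 12.4% held TATAAA and 33.8% held CCAAT. The starts of Olfr325, Olfr733, Olfr697, Olfr303 and Olfr1413 lie only 9, 23, 24, 39 and 48 bases before the coding start. Such starts may not mark a noncoding first exon. Their windows include the TATAAA matches of Olfr303 and Olfr733 and the CCAAT matches of Olfr325 and Olfr1413. The member counts are therefore not a like comparison with all windows. The cyclic AMP response element TGACGTCA was in 0 of 9 member windows (1.55% of all windows), the Olf1/EBF motif of olfactory neurons in 0 (0.779%) and the homeodomain motif TAATTA in 1 (4.84%). TATAAA and TAATTA can share bases, and a match describes letters only.

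Most of the lower members rest on few reads. For 18 of the 28 members the values were near whole multiples of a step of 0.0667 to 0.0832 FPKM, which was taken as the value of 1 read. Dividing by the step gave a median of 5.5 (Olfr554) to 30.5 (Olfr761) reads per library, with as few as 2 reads for Olfr308, Olfr1413 and Olfr357. Within groups the variance of these read numbers divided by their mean was 0.425 to 2.92 (median 1.05), where counting alone gives about 1. It was below 2 in 16 of the 18 genes. For 12 of the 18 genes the step fell with coding length, within 2%, as about 13000000 reads per library would give. The steps were chosen from the same values, and a mean distance to whole reads of at most 0.11 of a step was set after seeing them, so these read numbers are approximate.

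**Figure D2:**
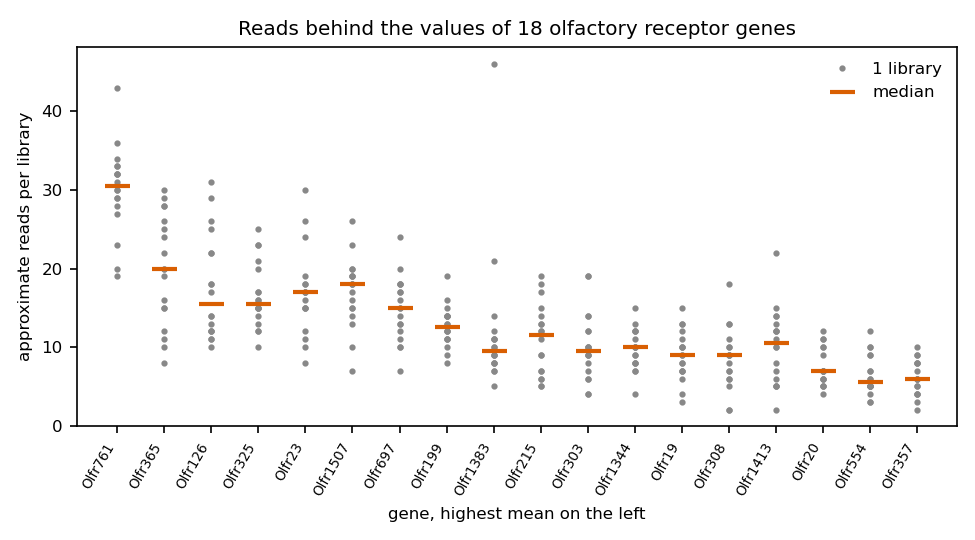
Approximate reads per library of the 18 olfactory receptor genes with a recognisable step, with each library as a grey point and the median over 18 libraries in orange. Medians run from 5.5 to 30.5 reads, and the value of 46 reads for Olfr1383 is STZ replicate 2.

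The summed values of the libraries were similar and 1 group stood apart. FPKM is scaled by sequencing depth, so such sums do not measure library size. Sums over the table were 561038 to 622169 FPKM per library, and replicates of a group correlated at 0.987 to 0.996 (Pearson, log2 values). In the model described next, 54.2% of 14881 genes differed between STZ and control, and the median gene was 0.17 log2 higher in STZ. STZ replicate 1 stood apart from the other STZ libraries. The summed level of 10 Leydig cell genes was 1980 FPKM in STZ replicate 1, 12200 in replicate 2 and 13000 in replicate 3, against 3740 to 4270 in control libraries. Spermatid and somatic marker lists moved in opposite directions. Summed levels of 19 elongating spermatid genes were 29500 to 53200 FPKM in STZ and 58000 to 64800 in control, and 17 of 19 were lower and 0 higher in STZ. Of 21 round spermatid genes 18 were lower in STZ and 0 higher, with sums of 2770 to 3360 FPKM in STZ and 3670 to 3720 in control. Of 15 Sertoli cell genes 14 were higher in STZ and 0 lower, with sums of 1890 to 2410 FPKM in STZ and 757 to 893 in control. Of 10 macrophage genes tested 8 were higher and 1 lower, with sums of 501 to 582 FPKM in STZ and 393 to 412 in control. The lower gene, Aif1, averaged 269 FPKM in STZ and 332 in control and made up most of the control sums, which therefore mask the rise of the others. Of 11 spermatogonial genes tested 9 were higher and 0 lower, and of 17 meiotic genes 1 was higher and 4 lower, which became 1 and 9 with library factors, 1 and 6 with quantile normalization and 0 and 14 with median centring. Of 10 genes listed for Leydig cells 1 was higher (Nr5a1) and 1 lower (Insl6, 164 FPKM in STZ and 194 in control). Aif1 and Insl6 fell as the spermatid lists did, and whether they come from the cells they were listed for was not tested. Of 4 red cell genes tested 1 was higher and 0 lower. The median differences of the spermatid, Sertoli, macrophage and spermatogonial lists kept their sign under each of 3 other scalings, but the calls changed. Spermatogonial calls became 7 higher and 0 lower with library factors, 5 and 1 with quantile normalization, and 5 and 2 with median centring. In the same order, 19, 13 and 19 elongating and 21, 14 and 21 round spermatid genes were lower. In whole testis, fewer cells of a type and less RNA per cell cannot be told apart, and the part of cell makeup in the differences of the receptor genes was not tested.

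Streptozotocin was compared with control to ask which receptor genes differ in testis after streptozotocin. Tests used limma on log2(FPKM + 1) with all 18 libraries and Benjamini-Hochberg adjustment over all 14881 genes at a mean of 0.5 FPKM or more. All 28 members entered because the rule that chose them is the same filter. In STZ, 6 members fell (Olfr733, Olfr215, Olfr112, Olfr212, Olfr127, Olfr761) and 2 rose (Olfr1033, Olfr1383), 8 of 28 or 28.6%, where 54.2% of all genes were called, 11.5% lower and 42.7% higher. The median difference of the 28 genes was −0.12 log2, against 0.17 for all genes, and 22 of 28 lay below 0. The calls depend on scaling, for the members and for all genes. With library factors 9 members were lower and 2 higher, where 26.3% of all genes were lower and 29.6% higher. With quantile normalization 13 were lower and 1 higher, where 27.7% of all genes were lower and 21.6% higher. With median centring 21 were lower and 0 higher, where 43.7% of all genes were lower and 17.7% higher. All 3 STZ libraries lay below all 3 control libraries for 7 members and above them for 0, where 52.8% of all genes did not overlap, 11.1% below and 41.7% above.

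Olfr733, a class II receptor gene of MOR241 on chromosome 14, had the largest log2(FPKM + 1) difference among the members that fell. Its levels were 3.9, 2.65 and 2.73 FPKM in STZ libraries and 5.51, 5.74 and 6.05 FPKM in control libraries. Every STZ library was below every control library. The log2 difference was −0.74 ± 0.17 (SE, adjusted p = 0.00234, limma), and it passed under all 9 other settings and with any 1 library left out.

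Olfr112, the member of MOR218 with the highest level, had 7.95, 10.02 and 8.87 FPKM in STZ libraries and 12.18, 11.7 and 12.68 FPKM in control libraries. The groups did not overlap, and the log2 difference was −0.41 ± 0.10 (SE, adjusted p = 0.00287, limma). It also passed under every setting tried and with any 1 library left out. Olfr215, of MOR119, had 0.45, 0.51 and 0.42 FPKM in STZ libraries and 0.91, 1.08 and 0.99 FPKM in control libraries, a log2 difference of −0.45 ± 0.14 (SE, adjusted p = 0.0159, limma). Its groups did not overlap. The call was lost in 1 of 18 fits with a library left out, that without control replicate 2 (adjusted p = 0.051).

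Olfr212, the other MOR119 gene, had 0.8, 1.32 and 1.49 FPKM in STZ libraries and 1.68, 2.04 and 1.64 FPKM in control libraries (log2 difference −0.35 ± 0.14 SE, adjusted p = 0.0471, limma). The next pair of calls, both from MOR218, was of similar size. Olfr127 had 2.13, 2.8 and 1.84 FPKM in STZ libraries and 3.13, 3.02 and 2.99 FPKM in control libraries (log2 difference −0.32 ± 0.13 SE, adjusted p = 0.0498, limma). Olfr761 had 1.96, 1.52 and 2.16 FPKM in STZ libraries and 2.6, 2.36 and 2.68 FPKM in control libraries (log2 difference −0.31 ± 0.12 SE, adjusted p = 0.0482, limma). No STZ library reached a control library in any of these 3 genes, but the calls were fragile. With 1 library left out Olfr212 kept its call in 5 of 18 fits, Olfr127 in 6 and Olfr761 in 5. Without STZ replicate 1 the log2 differences were −0.21 for Olfr212 (adjusted p = 0.198, limma), −0.30 for Olfr127 (0.0925) and −0.33 for Olfr761 (0.0514). Without STZ replicate 2 they were −0.39 for Olfr212 (0.0574), −0.44 for Olfr127 (0.0167) and −0.21 for Olfr761 (0.201). Without STZ replicate 3 they were −0.44 for Olfr212 (0.0299), −0.23 for Olfr127 (0.208) and −0.38 for Olfr761 (0.0386). All 3 calls were also lost without any 1 of the control libraries (adjusted p of 0.0588 to 0.153), and most were lost by a small margin when a library of another group was left out.

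Both members that rose were high in STZ replicates 2 and 3 and at control levels in STZ replicate 1. Olfr1033, a class II receptor gene of MOR199 on chromosome 2, had 0.78, 1.96 and 1.85 FPKM in STZ libraries and 0.49, 0.58 and 0.8 FPKM in control libraries. The log2 difference was 0.61 ± 0.15 (SE, adjusted p = 0.00366, limma). Without STZ replicate 1 it was 0.84, and it kept its call with any 1 library left out. It was 0.25 (adjusted p = 0.0913) with median centring, and its adjusted p was 0.0595 in a fit of only the STZ and control libraries. Olfr1383, of MOR256 on chromosome 11, had 0.72, 3.86 and 1.76 FPKM in STZ libraries and 0.82, 0.91 and 0.41 FPKM in control libraries, a log2 difference of 0.74 ± 0.25 (SE, adjusted p = 0.0195, limma). Without STZ replicate 1 it was 1.11, without STZ replicate 2 it was 0.36 with an adjusted p of 0.11, and without control replicate 3 it was 0.61 with an adjusted p of 0.0807. These are the STZ libraries in which the Leydig cell list summed to 12200 and 13000 FPKM, against 1980 in replicate 1, and the part of that list in the levels of both genes was not tested.

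Members with higher levels included some that did not pass. Olfr701, on chromosome 7, had 11.21, 11.43 and 9.67 FPKM in STZ libraries and 13.21, 11.89 and 11.19 FPKM in control libraries. The ranges overlapped (log2 difference −0.15 ± 0.08 SE, adjusted p = 0.116, limma). Olfr613, the class I gene with the highest level, had 8.12, 10.34 and 8.94 FPKM in STZ libraries and 8.54, 8.66 and 9.22 FPKM in control libraries (0.04 ± 0.09, adjusted p = 0.725, limma). Olfr128 had 5.16, 4.94 and 4.16 FPKM in STZ libraries and 6.34, 4.81 and 5.84 FPKM in control libraries (−0.21 ± 0.11, adjusted p = 0.107, limma). Olfr126 had 1.13, 0.9 and 0.89 FPKM in STZ libraries and 0.98, 1.44 and 2.08 FPKM in control libraries (−0.32 ± 0.15, adjusted p = 0.0806, limma). All 5 MOR218 members thus had a lower mean in STZ than in control, where 22 of 28 members had a log2 difference below 0. Of the 5, 3 passed, where 11.5% of all genes were called lower, and the calls of Olfr127 and Olfr761 were fragile. These genes share sequence windows, so their values are not independent and the count is a description only.

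**Figure D3:**
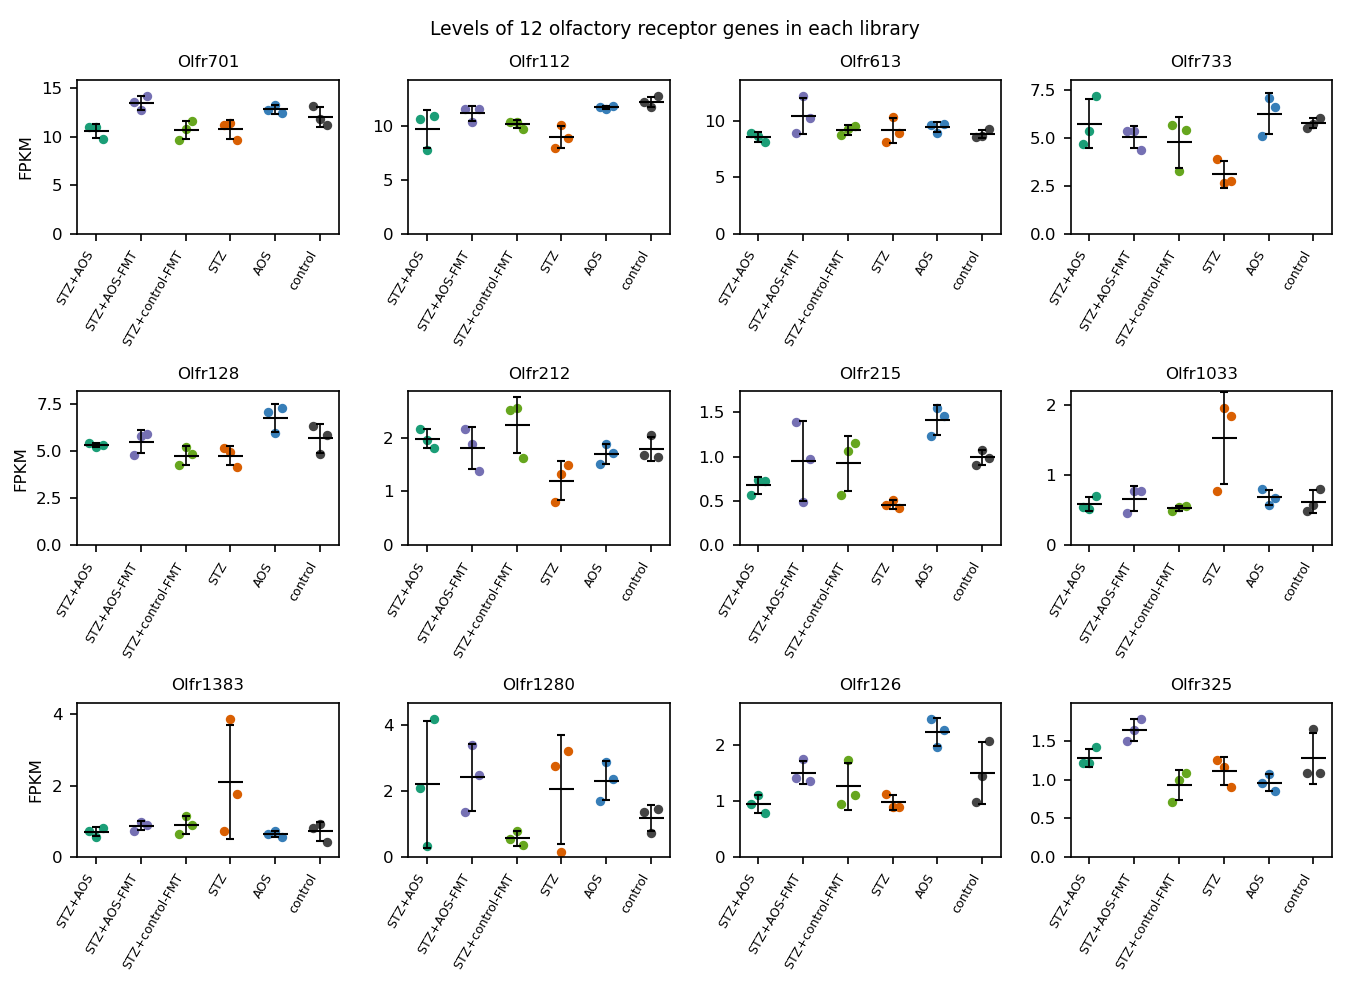
FPKM of 12 olfactory receptor genes in each library (points), by group from STZ+AOS at the left to control at the right, with the group mean and SD as black bars (n = 3 each). STZ libraries of Olfr733, at 2.65 to 3.9 FPKM, lie below control, while Olfr1033 and Olfr1383 are high in 2 of the 3 STZ libraries.

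The 3 treated STZ groups were each compared with STZ to ask what AOS or a transplant changed in mice given streptozotocin. All 3 comparisons use the same 3 STZ libraries, so likeness between them is in part fixed by these shared libraries. In STZ+AOS, 4 of 28 members differed from STZ (Olfr733 and Olfr212 higher, Olfr1033 and Olfr1383 lower), where 54.1% of all genes were called, 11.3% higher and 42.8% lower. In STZ+AOS-FMT, 9 of 28 differed (7 higher and 2 lower), where 55.7% of all genes were called, 11.5% higher and 44.2% lower. In STZ+control-FMT, 4 of 28 differed (Olfr733, Olfr212 and Olfr215 higher and Olfr1033 lower), where 50.4% of all genes were called, 10.9% higher and 39.5% lower. The median difference of the members was 0.06 log2 in STZ+AOS, 0.17 in STZ+AOS-FMT and 0.12 in STZ+control-FMT. That of all genes was −0.17 in STZ+AOS, −0.18 in STZ+AOS-FMT and −0.15 in STZ+control-FMT. Other scalings raised the count of higher members and the share of all genes called higher. With library factors, quantile normalization and median centring, 5, 10 and 16 members were higher in STZ+AOS and 2, 1 and 0 lower. Of all genes 26.5%, 28.7% and 44.4% were higher there and 30.9%, 21.4% and 19% lower. In STZ+AOS-FMT 12, 15 and 19 members were higher and 1, 0 and 0 lower, where 27.2%, 28.7% and 45% of all genes were higher and 30.3%, 22.1% and 18.3% lower. In STZ+control-FMT 5, 10 and 16 members were higher and 1 lower under each scaling, where 24.9%, 24.8% and 41.6% of all genes were higher and 27.8%, 21% and 17% lower.

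Olfr733 had 4.68, 5.36 and 7.15 FPKM in STZ+AOS libraries, 5.36, 5.34 and 4.36 FPKM in STZ+AOS-FMT libraries and 5.66, 3.25 and 5.39 FPKM in STZ+control-FMT libraries, against 3.9, 2.65 and 2.73 FPKM in STZ libraries. In STZ+AOS and STZ+AOS-FMT every library was above every STZ library, and STZ+control-FMT replicate 2 lay within the STZ range. The log2 differences from STZ were 0.71 in STZ+AOS (adjusted p = 0.00295, limma), 0.57 in STZ+AOS-FMT (0.0123) and 0.48 in STZ+control-FMT (0.0315), each with an SE of 0.17. The STZ+AOS call held with any 1 library left out. The STZ+AOS-FMT call was lost when STZ replicate 2 (adjusted p = 0.0521) or STZ replicate 3 (0.0507) was left out. The STZ+control-FMT call was lost when STZ replicate 2 (0.111), STZ replicate 3 (0.108), STZ+control-FMT replicate 1 (0.136) or STZ+control-FMT replicate 3 (0.118) was left out.

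Olfr212 had 2.16, 1.96 and 1.81 FPKM in STZ+AOS libraries, 2.16, 1.89 and 1.38 FPKM in STZ+AOS-FMT libraries and 2.51, 2.55 and 1.63 FPKM in STZ+control-FMT libraries, against 0.8, 1.32 and 1.49 FPKM in STZ libraries. Only STZ+AOS-FMT overlapped STZ, through its replicate 3. The log2 differences from STZ were 0.45 in STZ+AOS (adjusted p = 0.0146, limma), 0.35 in STZ+AOS-FMT (0.0434) and 0.55 in STZ+control-FMT (0.00451), each with an SE of 0.14. Without STZ replicate 1 they were 0.31 in STZ+AOS (0.0646), 0.22 in STZ+AOS-FMT (0.185) and 0.41 in STZ+control-FMT (0.0172). The STZ+AOS call was also lost without STZ+AOS replicate 1 (0.0521), and the STZ+AOS-FMT call held in 9 of 18 fits with a library left out. Olfr215 had 0.57, 0.74 and 0.73 FPKM in STZ+AOS libraries, 1.39, 0.49 and 0.97 FPKM in STZ+AOS-FMT libraries and 0.57, 1.06 and 1.15 FPKM in STZ+control-FMT libraries, against 0.45, 0.51 and 0.42 FPKM in STZ libraries. Olfr215 passed in STZ+AOS-FMT (0.39 ± 0.14 SE, adjusted p = 0.0309, limma) and in STZ+control-FMT (0.39 ± 0.14, 0.0355). Both Olfr215 calls were lost without any 1 of the 3 STZ libraries, with adjusted p of 0.0508 to 0.0941. They were also lost without STZ+AOS-FMT replicate 1 (0.178) or 3 (0.0789), and without STZ+control-FMT replicate 2 (0.11) or 3 (0.139).

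Olfr1033 had 0.54, 0.52 and 0.71 FPKM in STZ+AOS libraries, 0.46, 0.77 and 0.77 FPKM in STZ+AOS-FMT libraries and 0.49, 0.54 and 0.56 FPKM in STZ+control-FMT libraries, against 0.78, 1.96 and 1.85 FPKM in STZ libraries. All 9 treated libraries were below all 3 STZ libraries, STZ replicate 1 by 0.01 FPKM only from the nearest. The log2 differences from STZ were −0.64 in STZ+AOS (adjusted p = 0.00272, limma), −0.57 in STZ+AOS-FMT (0.00527) and −0.69 in STZ+control-FMT (0.00175), each with an SE of 0.15, and each call held with any 1 library left out. The STZ+AOS difference was −0.28 (adjusted p = 0.0601) with median centring. The STZ+AOS-FMT difference was −0.25 (0.0916) with quantile normalization and −0.20 (0.176) with median centring, and its adjusted p was 0.0689 in a fit of only the compared groups. A filter of at least 1 FPKM in 3 libraries leaves Olfr1033 untested in every comparison. Olfr1383 had 0.73, 0.57 and 0.81 FPKM in STZ+AOS libraries, 0.73, 0.98 and 0.89 FPKM in STZ+AOS-FMT libraries and 0.65, 1.14 and 0.9 FPKM in STZ+control-FMT libraries, against 0.72, 3.86 and 1.76 FPKM in STZ libraries. It passed in STZ+AOS (−0.74 ± 0.25 SE, adjusted p = 0.0197, limma) and in STZ+AOS-FMT (−0.61 ± 0.25, 0.0476), and not in STZ+control-FMT (−0.59 ± 0.25, 0.0578). Without STZ replicate 2 the differences were −0.36 in STZ+AOS (adjusted p = 0.111) and −0.23 in STZ+AOS-FMT (0.31). The STZ+AOS call was also lost without STZ+AOS replicate 2 (0.0607), and the STZ+AOS-FMT call held in 2 of 18 fits with a library left out.

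The remaining calls of this kind were in STZ+AOS-FMT. Olfr701 had 13.61, 12.76 and 14.17 FPKM in STZ+AOS-FMT libraries and 11.21, 11.43 and 9.67 FPKM in STZ libraries, with no overlap. Its log2 difference of 0.30 ± 0.08 (SE, adjusted p = 0.0048, limma) passed under every setting and with any 1 library left out. Olfr112 had 11.51, 10.35 and 11.55 FPKM in STZ+AOS-FMT libraries and 7.95, 10.02 and 8.87 FPKM in STZ libraries, and passed at 0.29 ± 0.10 (adjusted p = 0.022, limma). Its adjusted p was 0.0823 without STZ replicate 1, 0.0546 without STZ replicate 3, 0.0655 without STZ+AOS-FMT replicate 1 and 0.0687 without STZ+AOS-FMT replicate 3. Olfr325, of MOR275, had 1.5, 1.64 and 1.78 FPKM in STZ+AOS-FMT libraries and 1.25, 1.17 and 0.91 FPKM in STZ libraries (0.33 ± 0.11, adjusted p = 0.019, limma), and its adjusted p was 0.092 without STZ replicate 3 and 0.0678 without STZ+AOS-FMT replicate 3. Olfr365, of MOR138, had 1.63, 2.14 and 2.27 FPKM in STZ+AOS-FMT libraries and 0.9, 1.69 and 0.67 FPKM in STZ libraries, which overlap (0.55 ± 0.21, adjusted p = 0.0385, limma). Its adjusted p was 0.0858 without STZ replicate 1, 0.168 without STZ replicate 3, 0.0933 without STZ+AOS-FMT replicate 2 and 0.111 without STZ+AOS-FMT replicate 3. Olfr701 was not called in the other treated groups, with 11.04, 10.98 and 9.79 FPKM in STZ+AOS libraries and 9.7, 10.78 and 11.62 FPKM in STZ+control-FMT libraries, and log2 differences from STZ of −0.02 and −0.01.

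**Figure D4:**
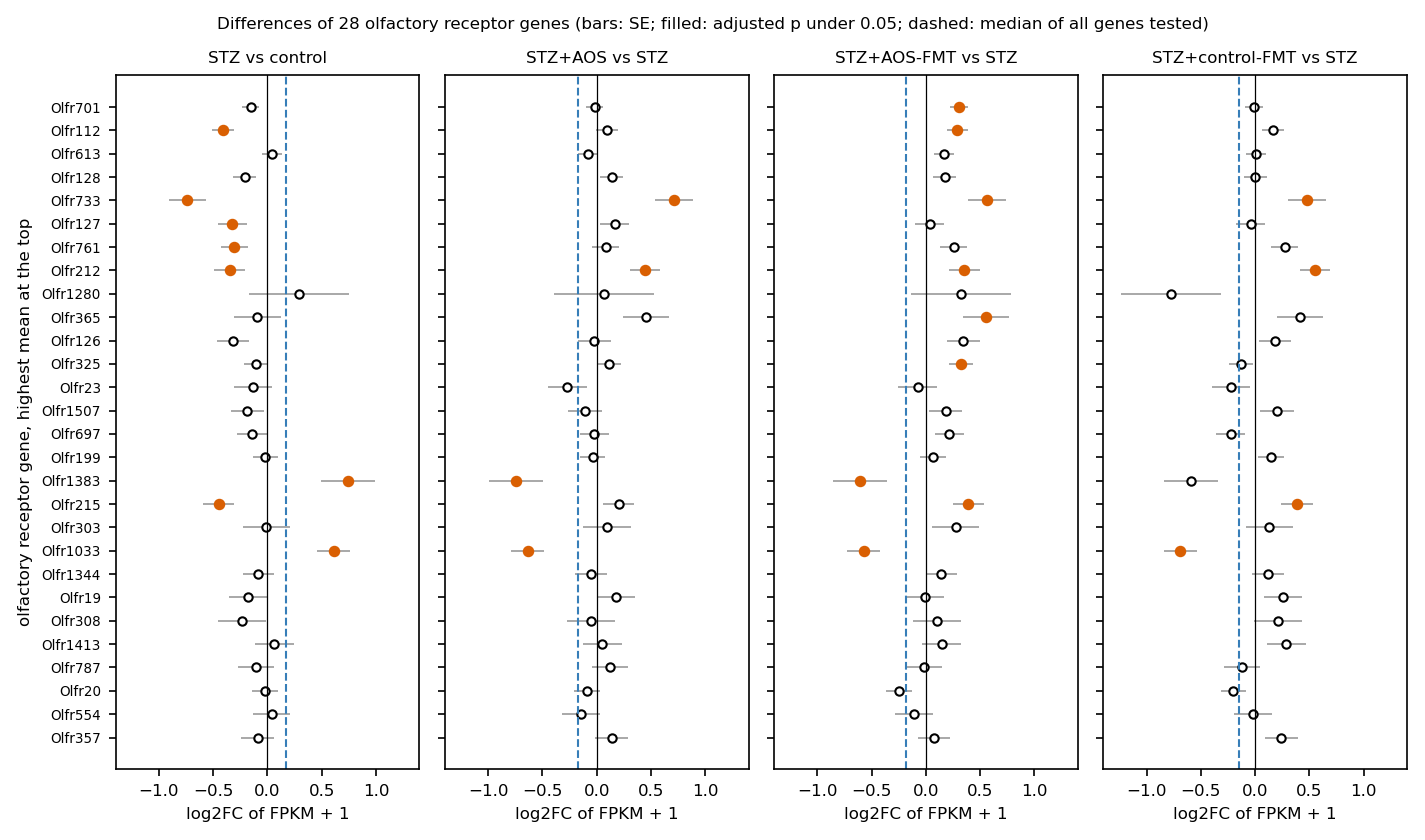
Log2 difference of FPKM + 1 for the 28 olfactory receptor genes, with the highest mean at the top, in STZ vs control and in each treated STZ group vs STZ (bars, SE). Filled points passed an adjusted p of 0.05, and the dashed line is the median of all 14881 genes. In STZ vs control 22 of 28 points lie below 0 while the dashed line is above it.

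The other comparisons gave no member past the adjusted threshold with limma. In AOS vs control 0 of 28 members and 0% of all genes were called. At an unadjusted p under 0.05 there were 2 members, Olfr1413 and Olfr126, both higher in AOS, where 3.81% of all genes were higher at such a p. Olfr126 had 2.46, 1.97 and 2.27 FPKM in AOS libraries and 0.98, 1.44 and 2.08 FPKM in control libraries (log2 difference 0.39 ± 0.15 SE, adjusted p = 0.511, limma). Olfr1413 had 1.03, 1.5 and 0.81 FPKM in AOS libraries and 0.14, 0.55 and 0.69 FPKM in control libraries, with no overlap (0.54 ± 0.18, adjusted p = 0.449, limma). The AOS and control libraries did not overlap for 7 members, 5 of them higher in AOS and 2 lower, where 21.9% of all genes did not overlap, 7.51% higher and 14.4% lower.

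In STZ+AOS-FMT vs STZ+control-FMT 0 of 28 members and 0% of all genes were called. At an unadjusted p under 0.05 there were 4 members, all higher in STZ+AOS-FMT, namely Olfr325, Olfr701, Olfr697 and Olfr1280, where 1.67% of all genes were higher at such a p. Olfr701 had 13.61, 12.76 and 14.17 FPKM in STZ+AOS-FMT libraries and 9.7, 10.78 and 11.62 FPKM in STZ+control-FMT libraries (0.31 ± 0.08 SE, adjusted p = 0.55, limma). Olfr325 had 1.5, 1.64 and 1.78 FPKM in STZ+AOS-FMT libraries and 0.71, 1 and 1.08 FPKM in STZ+control-FMT libraries (0.46 ± 0.11, adjusted p = 0.405, limma). The groups did not overlap for 4 members, all higher in STZ+AOS-FMT, where 14.9% of all genes did not overlap and 3.64% did so as higher. The members singled out in these paragraphs by an unadjusted p were chosen after their values were seen.

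Against control, 0 of 28 members were called in STZ+AOS, in STZ+AOS-FMT and in STZ+control-FMT, where 0.0403%, 0% and 0% of all genes were called. At an unadjusted p under 0.05 there were 4 members in each, which were 4 lower in STZ+AOS, 2 higher and 2 lower in STZ+AOS-FMT, and 4 lower in STZ+control-FMT. Of all genes 3.49% were lower at such a p in STZ+AOS, 3.25% higher and 3.2% lower in STZ+AOS-FMT, and 1.75% lower in STZ+control-FMT. Olfr112 was among them in STZ+AOS, with 10.56, 7.7 and 10.87 FPKM in STZ+AOS libraries and 12.18, 11.7 and 12.68 FPKM in control libraries (−0.31 ± 0.10 SE, adjusted p = 0.408, limma). Olfr112 was also among them in STZ+control-FMT, with 10.28, 10.36 and 9.7 FPKM in STZ+control-FMT libraries against the same control libraries (−0.25 ± 0.10, adjusted p = 0.727, limma). A p that misses the threshold does not show that the levels were alike.

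Whether the effect of AOS depended on streptozotocin was tested by an interaction term added after seeing the data, the effect of AOS with STZ minus its effect without STZ. It called 1 of 28 members, Olfr1033 (−0.69 ± 0.22 log2, SE, adjusted p = 0.0232, limma), where 34.2% of all genes were called.

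Across all 6 groups, an F test in limma called 8 of 28 members, where 51.3% of all genes were called. They were Olfr126 (adjusted p = 0.00579), Olfr701 (0.00795), Olfr733 (0.00894), Olfr215 (0.0102), Olfr1033 (0.0115), Olfr112 (0.0159), Olfr325 (0.0189) and Olfr128 (0.0232). The orders of the groups differed between these genes. Olfr126 averaged 0.947 ± 0.155 FPKM in STZ+AOS, 1.51 ± 0.21 in STZ+AOS-FMT, 1.26 ± 0.421 in STZ+control-FMT, 0.973 ± 0.136 in STZ, 2.23 ± 0.247 in AOS and 1.5 ± 0.552 in control (SD, n = 3 each). Olfr128 averaged 5.32 ± 0.121 FPKM in STZ+AOS, 5.49 ± 0.628 in STZ+AOS-FMT, 4.75 ± 0.478 in STZ+control-FMT, 4.75 ± 0.525 in STZ, 6.75 ± 0.726 in AOS and 5.66 ± 0.78 in control. AOS gave the highest mean in both genes. Over the 28 members the lowest group mean was in STZ for 8, in STZ+AOS for 9, in STZ+control-FMT for 6, in STZ+AOS-FMT for 2, in AOS for 2 and in control for 1.

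The summed level of the 28 members was 64.1 ± 5.81 FPKM in STZ+AOS, 72.7 ± 2.2 in STZ+AOS-FMT, 63.6 ± 1.3 in STZ+control-FMT, 60.9 ± 4.22 in STZ, 75.3 ± 1.49 in AOS and 70.3 ± 2.69 in control (SD, n = 3 each). STZ libraries ranged from 58.3 to 65.7 FPKM and control libraries from 67.2 to 72.2 FPKM, without overlap. This was not particular to STZ. STZ+control-FMT libraries, at 62.3 to 64.9 FPKM, also lay below control, and AOS libraries, at 73.6 to 76.3 FPKM, lay above it. The separation of STZ and AOS from control depends on the scale. As a share of the summed table, STZ libraries held 0.00996 to 0.0117% and control libraries 0.0114 to 0.0121%, which overlap. AOS libraries held 0.0121 to 0.0126%, which meets the control range, and STZ+control-FMT libraries 0.0104 to 0.011%, still below control. The members were chosen by level, so these sums are a description. They follow the few highest genes, since the 5 highest hold 62.2% of the sum.

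**Figure D5:**
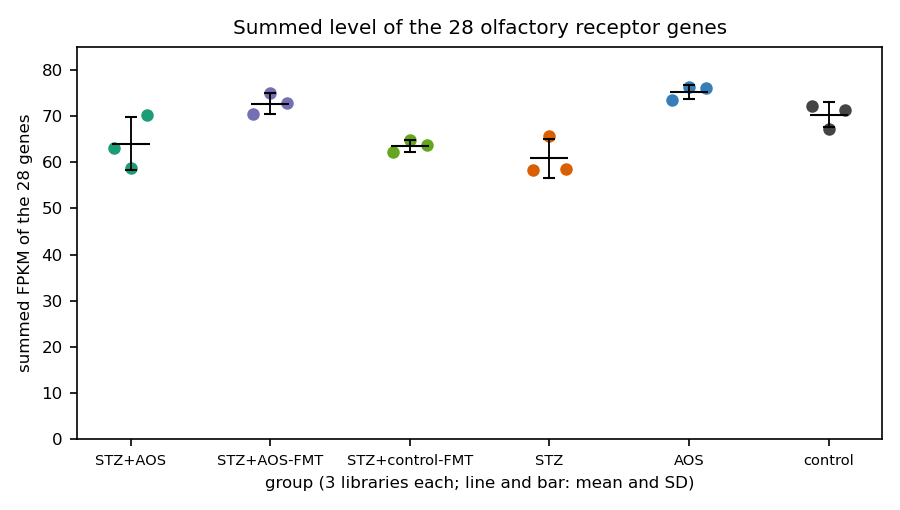
Summed FPKM of the 28 olfactory receptor genes in each library (points) by group, with the mean and SD as black bars (n = 3 each). The 3 STZ libraries, at 58.3 to 65.7 FPKM, lie below the 3 control libraries, at 67.2 to 72.2 FPKM. The STZ+control-FMT libraries also lie below control, and the AOS libraries lie above it. As a share of the summed table, which is not drawn, STZ and control libraries overlap.

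Olfr1280, of MOR248, varied widely within groups. Its levels were 2.08, 0.34 and 4.16 FPKM in STZ+AOS libraries, 1.36, 3.39 and 2.49 in STZ+AOS-FMT libraries, 0.54, 0.78 and 0.35 in STZ+control-FMT libraries, 2.76, 0.16 and 3.22 in STZ libraries, 1.7, 2.87 and 2.35 in AOS libraries and 1.36, 0.73 and 1.46 in control libraries. The highest library was 26 times the lowest, against 1.47 times for Olfr701. The F test did not call Olfr1280 (adjusted p = 0.271, limma). Olfr1280 shared 40.3% of its 50-base windows with other genes, most often Olfr1283, whose mean was 0.0639 FPKM.

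The signalling partners of the receptors were present only in part. Of 13 olfactory transduction genes tested, from a list of 16, 5 rose and 1 fell in STZ relative to control, with a median log2 difference of 0.26, which was −0.07 with quantile normalization, −0.10 with median centring and 0.09 with library factors. Cnga2, the channel subunit that olfactory neurons need, averaged 0.0594 FPKM over all libraries, while Cnga4 averaged 1.83 FPKM and Cngb1 2.94 FPKM. Gnal averaged 0.613 ± 0.0306 FPKM in STZ and 0.73 ± 0.04 in control (log2 difference −0.10, adjusted p = 0.242, limma). Adcy3 averaged 0.94 ± 0.182 FPKM in STZ and 0.713 ± 0.0493 in control (0.18, adjusted p = 0.185, limma). Ric8b, an exchange factor that boosts Golf signalling, averaged 2.46 ± 0.549 FPKM in STZ and 1.28 ± 0.121 in control, and rose by 0.59 (adjusted p = 0.000368, limma). Gnb1, Gnas and Arrb2, which serve many receptors, also rose, by 0.48, 0.88 and 0.89 (adjusted p of 6.07e-06, 3.85e-05 and 4.33e-05, limma). Pde1c, which degrades cyclic nucleotides, averaged 53.6 ± 2.58 FPKM in STZ and 65.7 ± 3.25 in control, and its log2 difference was −0.29 (adjusted p = 0.000552, limma).

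Genes for receptor transport gave a mixed picture. Of 8 tested of 10 listed, 4 rose (Reep1, Reep2, Reep3, Rtp4) and 1 fell (Reep6) in STZ relative to control, with a median of 0.55 log2. The calls were 4 higher and 3 lower with library factors (median 0.36), and 3 higher and 3 lower with quantile normalization (median 0.30) and with median centring (median 0.20). Rtp1 and Rtp2, which carry olfactory receptors to the cell surface in sensory neurons, averaged 0.331 and 0.0417 FPKM over all libraries and were below the level tested. Reep1 averaged 32.2 ± 2.8 FPKM in STZ and 15.8 ± 0.818 in control, and rose by 0.98 (adjusted p = 4.37e-08, limma). Reep6 averaged 410 ± 102 FPKM in STZ and 583 ± 18.6 in control, a log2 difference of −0.54 (adjusted p = 0.00135, limma).

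Markers of olfactory epithelium were checked because that tissue holds the sensory neurons. Of 13 listed genes in the table, 5 averaged below 0.1 FPKM, including Omp, the olfactory marker protein, at 0.0861 FPKM, and Cyp2g1 and Stoml3. The list summed to 22.1 to 35.3 FPKM in STZ libraries and 15.3 to 18.2 FPKM in control libraries. Of the 6 genes tested 3 rose in STZ, namely Ldb1, Ebf1 and Obp2a, and 0 fell, with a median of 0.27 log2. Obp2a averaged 2.61 ± 2.37 FPKM in STZ, 1.14 ± 1.39 in STZ+control-FMT and 0 in control (SD, n = 3 each). Its means in the other groups were at most 0.207 FPKM. Obp2a passed the filter, at a mean of 0.696 FPKM, only through its high groups, so its call is a description only. The calls were 2 higher and 1 lower with library factors (median 0.16), and 2 higher and 2 lower with quantile normalization (median −0.02) and with median centring (median −0.09). Ldb1 and Ebf1 are transcription regulators also used in other tissues.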

How the data were processed

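RNA of whole testis was sequenced as 18 Illumina libraries, per the labels' protocols. The deposited table gives 1 value per gene and library with no unit named. The values deposited by the authors were taken as FPKM because low values are multiples of a step that falls with gene length, and RPKM, or TPM with genes left out, cannot be told apart from it. The submitters' processing notes name Bowtie 0.12.2 and mm10, with no role for either; no counter or annotation is named in the material used here. Read totals are unknown, so no counting interval was computed, and the read numbers derived from steps cover counting error only.

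Values were tested with limma 3.58.1 (R 4.3.3, limma-trend) on log2(FPKM + 1) as deposited, for the 14881 genes at a mean of at least 0.5 over all libraries, with 6 group means and no replicate block. Fold changes on this scale understate changes of low genes. Calls have a Benjamini-Hochberg adjusted p under 0.05 over all genes tested, two-sided except the F test. The fit was tested on simulated data. Named genes were the 12 highest members, every called member, the 3 just inside and outside the threshold, overlapping or neighbouring genes, and up to 4 members of each list with the smallest p. The members and lists were chosen with earlier results of these data known. All 28 members and 653 of 654 olfactory receptor genes matched GENCODE M21 (GRCm38) by symbol, and promoter windows came from RefSeq. Coordinates are 1-based. Alternatives were another filter or none, pseudocounts of 0.5 and 0.1, quantile normalization, median centring, only the groups compared, a replicate block, each library left out and, added after seeing the data, library factors applied before the log.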

Additional observations from a re-analysis of the deposited data

Results flagged for a closer look

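Olfr1033 was singled out because the effect of AOS differed between mice with and without streptozotocin. Its levels were 0.54, 0.52 and 0.71 FPKM in STZ+AOS libraries and 0.78, 1.96 and 1.85 FPKM in STZ libraries, and 0.8, 0.58 and 0.67 FPKM in AOS libraries and 0.49, 0.58 and 0.8 FPKM in control libraries. The effect of AOS with STZ minus its effect without STZ was −0.69 ± 0.22 log2 (SE, adjusted p = 0.0232, limma interaction term, added after seeing the data). This test called 1 of 28 members, where 34.2% of all genes were called, and 3 members at an unadjusted p under 0.05, where 45.1% of all genes were, the others being Olfr733 (0.62, adjusted p = 0.0622) and Olfr212 (0.49, 0.0693). STZ replicates 2 and 3 carry the Olfr1033 difference, and the same 2 libraries had the high Leydig cell sums, whose part was not tested. The interaction term was fitted with the main settings only, so its dependence on scaling is unknown. With median centring the Olfr1033 difference was 0.25 in STZ vs control (adjusted p = 0.0913, limma) and −0.28 in STZ+AOS vs STZ (0.0601). Groups of 3 were not searched for outlying samples.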

How the results depend on the processing

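The number of members called depended on scaling and on the pooled spread. In STZ vs control, 8 members became 5 with no filter on low values, 14 with quantile normalization, 21 with median centring and 3 in a fit of only the compared groups. In STZ+AOS vs STZ, 4 became 11 with quantile normalization, 16 with median centring, 7 with library factors before the log and 2 with only the compared groups. In STZ+AOS-FMT vs STZ, 9 became 15, 19 and 3 with quantile normalization, median centring and only the compared groups. In STZ+control-FMT vs STZ, 4 became 11, 17 and 1 under those settings. The F test count of 8 became 13 with quantile normalization and 18 with median centring. The share of all genes called in STZ vs control was 61.4% with median centring and 34.9% with only the compared groups. The cause was not tested.

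Leaving out 1 library gave 4 to 7 calls in STZ vs control (4 without control replicate 3), 3 to 5 in STZ+AOS vs STZ, 3 to 9 in STZ+AOS-FMT vs STZ (3 without STZ replicate 3, 4 without STZ+AOS-FMT replicate 3), 2 to 5 in STZ+control-FMT vs STZ (2 without STZ replicate 3 or STZ+control-FMT replicate 3) and 6 to 10 in the F test. In STZ vs control, 5 members were called without STZ replicate 1 or 2, control replicate 2, STZ+AOS replicate 1, STZ+control-FMT replicate 1, AOS replicate 1 or AOS replicate 3. The 2 libraries left in a group are assumed to vary like the other groups. The 5 comparisons with 0 calls stayed at 0 under all these settings. Of 25 single-gene calls, 0 changed direction and 4 passed under all 9 settings and every omission. These were Olfr733 and Olfr112 in STZ vs control, Olfr733 in STZ+AOS vs STZ and Olfr701 in STZ+AOS-FMT vs STZ. Olfr1033 in STZ+control-FMT vs STZ passed under the 8 settings that tested it and was removed by the filter of at least 1 FPKM in 3 libraries. Lowering the mean that defines a member to 0.25 FPKM gave 50 members, and raising it to 1 gave 16. With replicate number as a block, 6, 4, 9 and 5 members were called in STZ vs control and in the 3 treated groups vs STZ, and 8 by the F test. Libraries of the same number were not seen to deviate together (r of −0.195 to 0.196 over 45 pairs). Pairs of unlike number had r of −0.346 to 0.314 (90 pairs), and 3 of 18 libraries correlated best with their own number. No pairing by number was seen, but groups of 3 cannot exclude one. Values of about 0.5 FPKM rest on a few reads, which limits the precision of the lowest members.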

Other observations

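Other chemoreceptor families were counted at the same level. Of 111 type 1 vomeronasal receptor genes, which detect pheromones, 5 averaged at least 0.5 FPKM (4.5%), with Vmn1r58 highest at 12 FPKM. Of 112 type 2 vomeronasal receptor genes 7 did (6.25%), with Vmn2r7 highest at 3.76 FPKM. Both Tas1r1, at 12.8 FPKM, and Tas1r3, subunits of the umami taste receptor, were above this level among 3 type 1 taste receptor genes, while 0 of 18 type 2 (bitter) taste receptor genes and 0 of 6 trace amine receptor genes were. The olfactory receptor share was 28 of 654 genes (4.28%).

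A list of 12 olfactory receptors with published ligands or a study history had low levels where measured. Of these 12 genes, 11 were in the table and 0 were members. The list was chosen by hand and is not complete, so members outside it may also have a study history. Olfr1393 had the highest mean, 0.303 FPKM, with values of 0 to 1.07 FPKM. Olfr16, the MOR23 receptor studied in mouse sperm, averaged 0.055 FPKM (0 to 0.14). Olfr78, a receptor for short-chain fatty acids studied in kidney and carotid body, averaged 0.0811 FPKM (0 to 0.15), and Olfr558 averaged 0.0967 FPKM (0.05 to 0.2). Olfr17 was listed at 0 in every library.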
